A study of Mus musculus with 6 samples.

Results

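The genes described here are 10 osteoblast and mineralization genes: Runx2, Sp7, Alpl, Phospho1, Enpp1, Ank, Spp1, Ibsp, Bglap and Bglap2. They were taken by gene symbol from a gene table of 53797 rows, and each symbol matched a single row. The table compares MLO-Y4 cells, a murine line with features of osteocytes, after low-intensity pulsed ultrasound (LIPUS) with control cells of the same line. Each group consisted of 3 cultures with a library each. LIPUS cultures received pulsed ultrasound of 1.5 MHz at 30 mW/cm2 for 20 min in collagen-coated wells, and RNA was taken 30 min after the stimulation had ended. Control cultures stood in wells of the same plate over transducers that were not connected. Every culture is therefore the same immortalized line, a model of the osteocyte and not bone tissue. In the study's own principal component analysis, a control culture stood apart from the others of its group. The paper proposes that stimulation leaking to control cells on the shared plate may have led to this, which was not tested here. The table gives a single FPKM (the number of sequenced fragments scaled to transcript length and to sequencing depth) for each group, so no value can be given without that culture, it holds no SD between cultures, and no test across cultures could be computed here from these values. The authors' own test columns in the table were not used.

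Mineral forms in bone where the phosphate supply exceeds its inhibitors. Tissue-nonspecific alkaline phosphatase (Alpl) releases phosphate by cleaving pyrophosphate, an inhibitor of crystal growth, while Enpp1 makes pyrophosphate outside the cell and Ank carries it or its precursor out of the cell. Phospho1 frees phosphate inside matrix vesicles, Spp1, Ibsp and osteocalcin (Bglap, Bglap2) are mineral-binding matrix proteins, and the transcription factors Runx2 and Sp7 set up the osteoblast programme that includes several of these genes.

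In this comparison, both transcription factors and Alpl were lower in LIPUS than in Control by more than 1.5-fold, and Ank was lower by somewhat less. The paper states for the same libraries that most bone-related genes did not change in expression. Its limit for significance was on q-values and not on a fold, so the calls here are not its calls. Runx2 was at 24.4 FPKM in Control and 14.8 FPKM in LIPUS, Sp7 at 5.86 and 3.75 FPKM, Alpl at 293 and 190 FPKM, and Ank at 146 and 104 FPKM. Spp1, Enpp1 and Phospho1 were closer to level, with LIPUS/Control ratios of 0.921, 1.13 and 1.18. The osteocalcin genes were covered by a handful of fragments, and Ibsp was listed at 0 FPKM in both groups. As the RNA came from whole cultures, fewer cells carrying a transcript and less of it in each cell cannot be told apart.

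**Figure D1:**
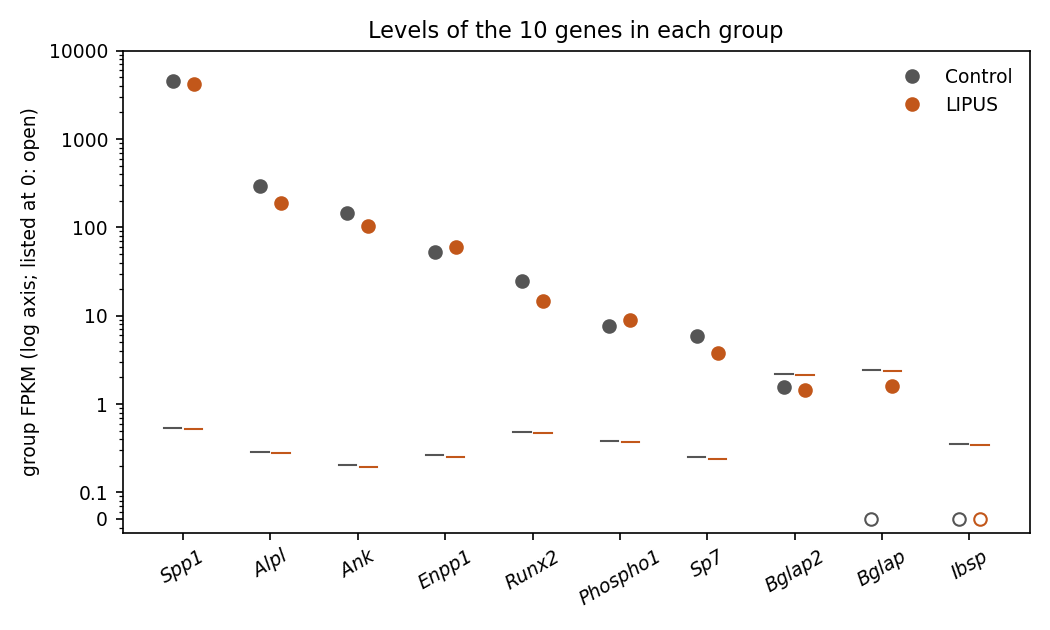
Group FPKM of the 10 genes on a log axis, with Control in grey and LIPUS in orange, 1 value per group without error bars because the table holds none. Short bars mark the FPKM that 3 fragments would give at the estimated depth. Runx2, Sp7, Alpl and Ank lie lower in LIPUS, whereas the osteocalcin genes lie under the bars.

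The table gives no counts, so the depth behind these values was estimated from its lowest values. For genes with a single annotated transcript of at least 1500 bases, FPKM multiplied by the transcript length less 165 bases, in kilobases, fell on 3 steps in each group. The 165 bases allow for the length of a fragment. They were chosen from the Control values alone, as the value that made the lowest Control step sharpest. In LIPUS the steps lay at 0.213, 0.218 and 0.219, with 133, 128 and 127 genes on them, and in Control at 0.188, 0.242 and 0.255, with 159, 121 and 134 genes. Of the values under 1.5 times the largest step, 97.0% in LIPUS and 92.8% in Control were within 1% of a step. If the group FPKM is the mean of 3 libraries and a step is 1 fragment in 1 of them, the LIPUS libraries held about 1530000 to 1560000 fragments and the Control libraries about 1310000 to 1770000. This is far fewer than the reads per sample that the study's methods state, and the difference was not resolved. The methods name mapped reads as the denominator of the FPKM. Whether all mapped fragments or a part of them were counted is not given in the sources used here. Every fragment number, interval and floor given here rests on a step being 1 fragment, and all would change if it were not. The largest step was 1.02 times the smallest in LIPUS and 1.35 times the smallest in Control, so the Control libraries were the less alike in depth. From these steps, each gene's fragments were estimated with its shortest coding transcript, along with the 95% exact (Clopper-Pearson) interval of the ratio. The intervals cover counting error only and leave out the spread between cultures. The floor was set at 3 fragments over a group.

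**Figure D2:**
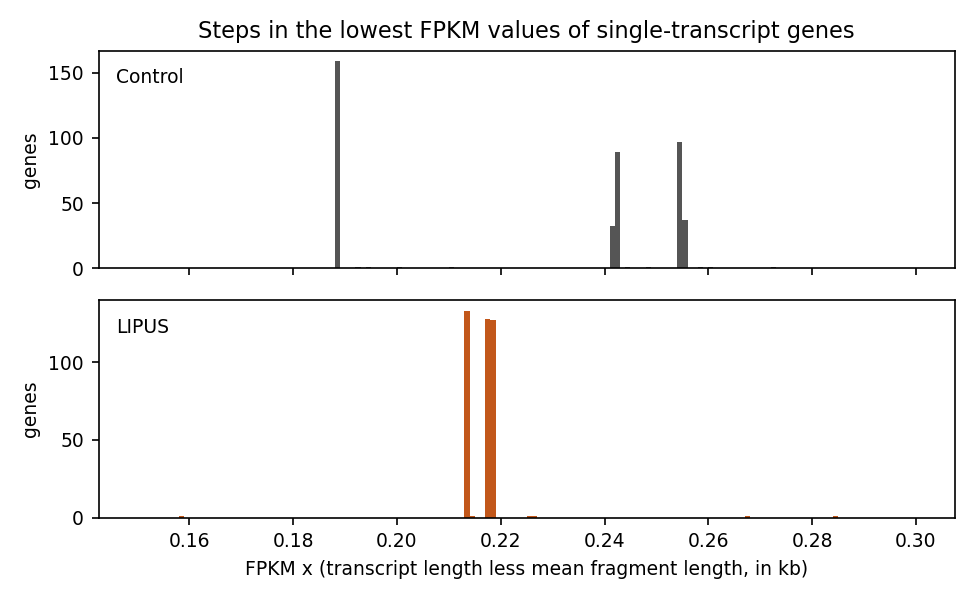
Number of single-transcript genes (y axis) by FPKM multiplied by the transcript length less 165 bases, in kilobases (x axis), for Control (top, grey) and LIPUS (bottom, orange). The 3 spikes in each panel were taken to be the values of 1 fragment, which could not be checked against counts. Those of LIPUS lie between 0.213 and 0.219 and those of Control between 0.188 and 0.255.

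Levels were compared between genes within a group, as FPKM is per length. The order in Control was Spp1, Alpl, Ank, Enpp1, Runx2, Phospho1, Sp7 and Bglap2, with Bglap and Ibsp at 0. LIPUS kept this order except that Bglap came above Bglap2, with both of them under their floors. Spp1 was the 5th most abundant of all rows in both groups. Alpl ranked 288 in Control and 474 in LIPUS, and Ank 624 and 929. Runx2 moved from rank 3785 to rank 5406, while Enpp1 moved the other way, from 1876 to 1659. Without values per culture, whether neighbours in this order differ beyond their spread was not testable.

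The transcription factors came first. Runx2, the factor without which no osteoblasts form, lies on chromosome 17 of GRCm38 (chr17:44495987-44814797, minus strand). Its LIPUS/Control ratio was 0.606, or -0.72 on the log2 scale, from an estimated 95 fragments in LIPUS and 152 in Control (counting interval 0.461 to 0.784). Sp7, or osterix, acts downstream of Runx2 and lies on chromosome 15 (chr15:102356606-102367182, minus strand). Its ratio was 0.640 (log2 -0.64), from 47 and 71 fragments (interval 0.432 to 0.936). Both intervals lay under 1, and both included the 1.5-fold line. The authors' software gave Runx2 the status OK and Sp7 the status NOTEST, meaning too few alignments for its test. Of the 10 genes, 6 had the status OK and 4 the status NOTEST, the latter being Sp7, Ibsp, Bglap and Bglap2. The FPKM ratio of Runx2 to Sp7 was 4.16 in Control and 3.94 in LIPUS, a proportion that the fragments of Sp7 leave imprecise.

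Several annotated genes overlap Runx2. Supt3, on the opposite strand, was at 20.4 FPKM in Control and 22.1 FPKM in LIPUS. The antisense gene Runx2os1 was at 3.41 and 5.51 FPKM, Runx2os2 at 0 and 0.336 FPKM, and Runx2os3 was listed at 0 in both groups. None of these overlapping genes had a lower value in LIPUS. The libraries were stranded, but whether the FPKM calculation used the strand is not given in the sources used here.

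Among the phosphatases, Alpl was lower in LIPUS, while Phospho1 showed no detectable difference. Alpl (chr4:137741733-137796384, minus strand) had a ratio of 0.647 (log2 -0.63) from 2065 fragments in LIPUS and 3076 in Control. Its counting interval, 0.612 to 0.685, was narrow and crossed the 1.5-fold line. Phospho1, which acts on phosphocholine and phosphoethanolamine, lies on chromosome 11 (chr11:95824499-95832140, plus strand). It was at 7.63 FPKM in Control and 8.97 FPKM in LIPUS, a ratio of 1.18 (log2 0.23) from 72 fragments in LIPUS and 59 in Control. Its interval, 0.822 to 1.69, included 1, so no difference was detectable at this depth. Phospho1 shares its position with Zfp652 on the same strand (7.37 FPKM in Control, 6.63 FPKM in LIPUS) and with Abi3 on the other (1.87 and 2.14 FPKM). Alpl was 38.4 times as abundant as Phospho1 in Control and 21.1 times in LIPUS.

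Of the genes that supply pyrophosphate, Ank was lower in LIPUS and Enpp1 somewhat higher. Ank (chr15:27466677-27594909, plus strand) had a ratio of 0.715 (log2 -0.48), from 1608 fragments in LIPUS and 2169 in Control. Its interval, 0.670 to 0.763, lay under 1 and did not reach the 1.5-fold line. Otulin, a deubiquitinase gene that overlaps Ank on the opposite strand, was likewise lower, at 35.5 FPKM in Control and 25.9 FPKM in LIPUS; the part of shared reads in either value was not tested. Enpp1 (chr10:24637914-24712159, minus strand) was at 52.3 FPKM in Control and 59.4 FPKM in LIPUS. This is a ratio of 1.13 (log2 0.18) from 701 fragments in LIPUS and 596 in Control, with an interval of 1.02 to 1.27. Relative to Enpp1, Alpl was 5.60 times as abundant in Control and 3.19 times in LIPUS, and Ank 2.79 and 1.76 times. Relative to Ank, in contrast, Alpl was 2.01 times as abundant in Control and 1.82 times in LIPUS.

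**Figure D3:**
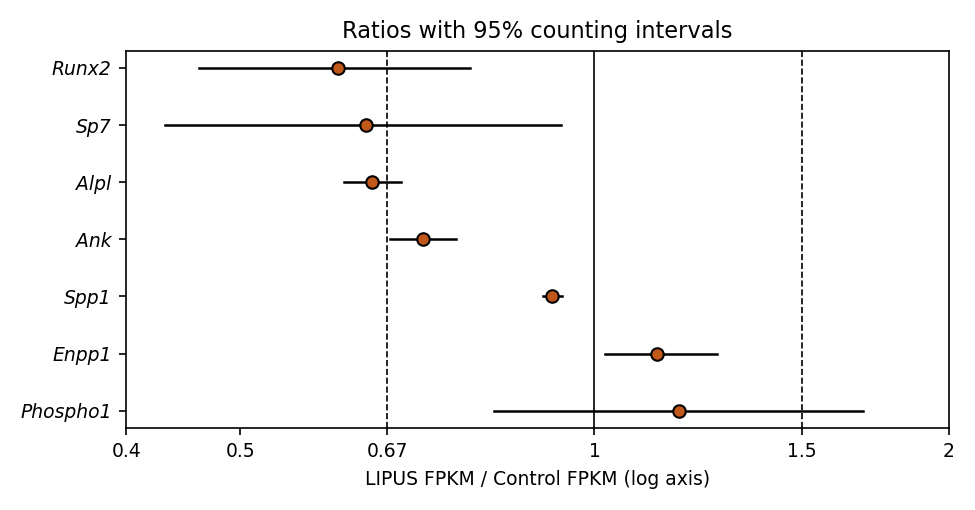
LIPUS/Control ratio of FPKM (log axis) for the 7 genes with more than 3 fragments, with 95% counting intervals as bars; the solid line is a ratio of 1 and the dashed lines are 1.5-fold. Runx2, Sp7 and Alpl lie left of the lower dashed line, Ank just right of it, and Enpp1 and Phospho1 to the right of 1.

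Of the matrix protein genes, Spp1 alone was well covered. Spp1 encodes osteopontin, which binds mineral and inhibits its growth, and lies on chromosome 5 (chr5:104435118-104441050, plus strand). It was at 4514 FPKM in Control and 4158 FPKM in LIPUS, a ratio of 0.921 (log2 -0.12). With about 25032 fragments in Control and 23910 in LIPUS, the interval was 0.905 to 0.938. Counting error was thus small beside a difference of this size, while the spread between cultures is not known. Spp1 was 15.4 times as abundant as Alpl in Control and 21.9 times in LIPUS. Gm42793, an unconfirmed gene model within Spp1 on the same strand, was at 8.74 and 7.23 FPKM. Ibsp, which encodes bone sialoprotein and lies upstream of Spp1 on the same chromosome (chr5:104299171-104311469, plus strand), was listed at 0 FPKM in both groups. At its length, 3 fragments allow up to 0.354 FPKM in Control and 0.341 FPKM in LIPUS.

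Osteocalcin, the small calcium-binding protein of mature osteoblasts, is encoded in the mouse by Bglap (chr3:88383501-88384464) and Bglap2 (chr3:88377736-88378699). These neighbours lie on the minus strand of chromosome 3, as does the related gene Bglap3 (chr3:88368616-88372743). The coding sequences of Bglap and Bglap2, as annotated in GENCODE M21 on GRCm38, are shown because reads from one can fit the other. They have 285 bases each without the stop codon, and capitals mark the bases at which they differ.
Bglap: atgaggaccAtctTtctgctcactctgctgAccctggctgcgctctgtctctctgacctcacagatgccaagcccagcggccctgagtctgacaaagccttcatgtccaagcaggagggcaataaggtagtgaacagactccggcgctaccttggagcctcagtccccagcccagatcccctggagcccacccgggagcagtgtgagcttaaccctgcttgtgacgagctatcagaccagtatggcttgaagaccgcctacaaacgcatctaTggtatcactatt
Bglap2: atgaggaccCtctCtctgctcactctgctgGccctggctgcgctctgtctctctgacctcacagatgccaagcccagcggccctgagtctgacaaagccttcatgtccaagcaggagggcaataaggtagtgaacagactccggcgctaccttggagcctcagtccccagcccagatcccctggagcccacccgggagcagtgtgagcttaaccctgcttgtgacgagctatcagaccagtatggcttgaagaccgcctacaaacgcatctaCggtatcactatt
The 2 sequences differed at 4 bases (98.6% identical), and a run of 241 bases was the same in both. Of the 341 windows of 100 bases in the Bglap transcript, the length of a read, 192 (56.3%) also occurred in that of Bglap2. Bglap and Bglap3 differed at 13 coding bases and shared 0 such windows. Bglap2 and Bglap3 differed at 9 coding bases, and 20 of the 372 windows in the Bglap2 transcript (5.38%) also occurred in that of Bglap3.

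Bglap was listed at 0 FPKM in Control and 1.58 FPKM in LIPUS, an estimated 2 fragments. Bglap2 was at 1.57 FPKM in Control and 1.43 FPKM in LIPUS, an estimated 2 fragments in each group. All these values were under the floors, which lay between 2.12 and 2.45 FPKM for these short transcripts, and no fold is given. Bglap3 was listed at 0 in both groups. Summed, the 3 genes came to an estimated 2 fragments in Control and 4 in LIPUS. The FPKM ratio of 1.92 had an interval of 0.276 to 21.3, so a difference in either direction was not detectable at this depth. As a comparison across the table, 120 rows were at 0 in Control and at 1 FPKM or more in LIPUS, and 102 rows were the reverse.

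How common such ratios were depends on the level. Among the 11536 rows with a mean FPKM of at least 1, LIPUS was lower by 1.5-fold or more in 8.37% and higher in 7.71%. The median log2 ratio over these rows was -0.00143. Of the 10 genes, 8 passed this limit, all but Ibsp and Bglap, and 3 of the 8 were lower and 0 higher. The median log2 ratio of the 7 with a ratio was -0.48. At a mean of 1 to 10 FPKM, 15.3% of all rows were lower and 13.7% higher, so the ratio of Sp7 was an ordinary one. In that range, 13.5% of rows were as low as Sp7 or lower, and 29.4% were as high as Phospho1 or higher. Large ratios were less common at 10 to 100 FPKM, with 3.70% lower and 3.53% higher. There, 123 of 5784 rows (2.13%) were as low as Runx2 or lower, and 24.1% were as high as Enpp1 or higher. At 100 to 1000 FPKM, 1.72% were lower and 3.21% higher. Alpl was among the 14 lowest of the 872 rows in this range (1.61%) and Ank among the 20 lowest (2.29%). Above 1000 FPKM, 11 of 80 rows (13.8%) were as low as Spp1 or lower. Thus Runx2, Alpl and Ank had ratios that few genes in their range of FPKM had, whereas Sp7, Phospho1, Enpp1 and Spp1 did not. The ranges are wide, and Runx2 (mean 19.6 FPKM) and Ank (mean 125 FPKM) lie low in theirs. Their ratios may therefore be less rare among genes of closely similar level.

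**Figure D4:**
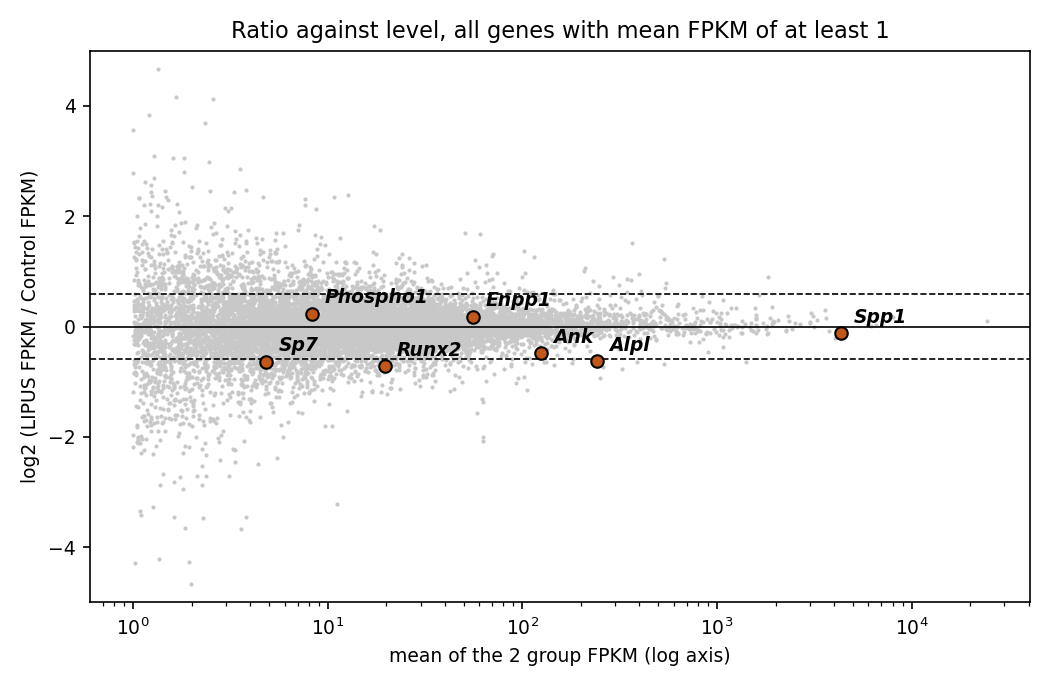
log2 of LIPUS/Control (y axis) against the mean of the group FPKM (log x axis) for 11461 genes with a mean of at least 1 (grey; 4 genes beyond 5 on the log2 axis are not drawn), with the 7 genes that have a ratio in orange; dashed lines are 1.5-fold. The grey cloud narrows with level, and Alpl, Ank and Runx2 lie at its lower edge while Sp7 lies inside it.

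Promoter windows of 250 bases before the annotated start were available from RefSeq (GRCm38.p6) for 8 of the genes, in 10 windows, and none was matched for Sp7 and Bglap2. The Runx core TGTGGT and the GC box GGGCGG, which Sp family factors can bind, were searched on both strands, and no match of one overlapped a match of the other in these windows. The Runx core occurred in 14.0% of all 32851 windows of the same length and the GC box in 32.7%. The Runx core was found in 4 of the 10 windows, each time on the minus strand of the gene and thus read as ACCACA: in Bglap from position -132, in Spp1 from -128, in Enpp1 from -144 and in Runx2 from -80, with -1 the base before the start. The RefSeq start of Runx2 lies inside the longer GENCODE gene. The GC box was found in 4 windows, those of Alpl, Ank, Enpp1 and Phospho1. The windows of Alpl and Ank, the abundant genes that were lower, and of Enpp1, which was not, are shown with the matches in capitals.
Alpl, chr4:137796385-137796634, minus strand: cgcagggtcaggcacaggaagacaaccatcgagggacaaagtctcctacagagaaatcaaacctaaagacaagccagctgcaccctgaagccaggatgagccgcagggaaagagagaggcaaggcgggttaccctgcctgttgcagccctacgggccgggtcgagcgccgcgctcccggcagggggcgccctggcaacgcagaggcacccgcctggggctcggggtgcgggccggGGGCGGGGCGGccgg
Ank, chr15:27466427-27466676, plus strand: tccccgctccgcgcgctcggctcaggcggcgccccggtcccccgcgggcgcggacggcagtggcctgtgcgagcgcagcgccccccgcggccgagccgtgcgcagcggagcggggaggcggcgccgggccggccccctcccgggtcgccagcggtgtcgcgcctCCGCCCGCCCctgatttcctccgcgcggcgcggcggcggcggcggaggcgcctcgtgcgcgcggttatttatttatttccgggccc
Enpp1, chr10:24712160-24712409, minus strand: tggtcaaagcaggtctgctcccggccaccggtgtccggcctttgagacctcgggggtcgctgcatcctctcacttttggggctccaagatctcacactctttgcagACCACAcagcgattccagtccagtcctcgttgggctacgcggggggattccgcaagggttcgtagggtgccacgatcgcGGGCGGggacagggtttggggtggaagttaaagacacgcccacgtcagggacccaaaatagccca
Alpl had overlapping GC boxes from positions -15 and -10 in the window of its upstream start, and neither motif in that of its other start. Ank had overlapping GC boxes from -86 and -82. Enpp1 held both motifs, the GC box from -65. The genes that were lower did not share a motif that the others lacked, and a match in letters is not evidence of binding.

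The genes around these 10 were described with lists of osteoblast and mineralization genes, 100 genes in all, of which 74 passed the limit on FPKM. Among these, 5 were higher and 7 lower by 1.5-fold or more, and the median log2 ratio was -0.08. Without the 10 genes themselves, 66 of 90 passed, with 5 higher, 4 lower and a median of -0.07. Over all rows the shares were 7.71% higher and 8.37% lower, but rows at 1 to 10 FPKM make up much of these, so that the counts of the lists cannot be read against them directly.

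Of 16 osteoblast transcription factor genes, 11 passed, 2 were lower and 0 higher (median log2 -0.16). The 2 were Runx2 and Sp7. The most abundant, by the mean of the groups here and in the lists that follow, were Atf4 (321 FPKM in Control, 337 in LIPUS), which drives late osteoblast genes, Dlx3 (144 and 169 FPKM) and Cbfb, the partner of Runx2 on DNA (44.4 and 43.9 FPKM). Cbfb was thus nearly level where Runx2 was not.

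In the list of phosphate and pyrophosphate handling, 12 of 17 genes passed, and Alpl was the 1 gene lower, with 0 higher (median log2 0.08). Slc20a1, a phosphate importer and the second most abundant gene of the list by the mean of the groups, was at 229 FPKM in Control and 199 FPKM in LIPUS. Of 10 matrix vesicle annexin and calcium genes, 9 passed, with 0 in either direction. By the mean of the groups, the most abundant were Anxa2 (823 and 780 FPKM), S100a10 (591 and 558 FPKM) and Anxa5 (479 and 490 FPKM), and the median log2 ratio of the 8 with a ratio was 0.05.

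Of 18 bone matrix genes, 12 passed, 3 were higher and 1 lower, and the median log2 ratio of the 11 with a ratio was 0.08. Dcn, a small proteoglycan that binds collagen, was at 189 FPKM in Control and 540 FPKM in LIPUS (ratio 2.86, interval 2.69 to 3.05). Dmp1, a matrix protein of osteocytes, was at 3.04 and 7.65 FPKM (ratio 2.52, interval 1.70 to 3.86). Mgp, an inhibitor of mineralization, was at 8.41 and 18.8 FPKM (ratio 2.24, interval 1.22 to 4.17). Postn, by contrast, was at 2.94 and 1.11 FPKM (ratio 0.376, interval 0.183 to 0.741). By the mean of the groups, the most abundant after Spp1 were Fn1 (1915 and 2028 FPKM) and Bgn (1222 and 1077 FPKM). Spp1 was within 1.5-fold, and Ibsp and the osteocalcin genes had too few fragments for a call.

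Collagen processing had 13 of 13 genes past the limit and 1 lower, Tmem38b, an ion channel gene of the endoplasmic reticulum (5.81 FPKM in Control, 3.03 FPKM in LIPUS), with a median log2 ratio of -0.04. The most abundant were Lox (1084 and 972 FPKM), Serpinh1 (504 and 448 FPKM) and Ppib (271 and 290 FPKM). Of 10 inhibitors of mineralization, 6 passed and 2 were higher, with 0 lower (median log2 0.03). These were Mgp and Grem1, a secreted BMP antagonist at 67.7 and 106 FPKM (ratio 1.57, interval 1.46 to 1.68). Ank and Spp1 belong to this list as well, so that its members lay on both sides of 1.

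Among 15 genes of the BMP input to osteoblasts, 12 passed, 1 was higher and 1 lower, and the median log2 ratio was -0.22. Bmp4, a ligand, was at 2.28 FPKM in Control and 4.96 FPKM in LIPUS (ratio 2.18, interval 1.16 to 4.32), and Smad9, a signal transducer, at 9.34 and 5.19 FPKM (ratio 0.556, interval 0.444 to 0.699). The BMP target genes Id1, Id2 and Id3 had log2 ratios of -0.39, -0.48 and -0.47 and did not pass 1.5-fold. Of 5 genes for parathyroid hormone and vitamin D signals, 3 passed and 1 was lower (median log2 -0.40). This was Vdr, the vitamin D receptor, at 35.3 and 21.1 FPKM (ratio 0.598, interval 0.527 to 0.677). Rxra, its partner receptor, was at 18.8 and 17.4 FPKM, and Pth1r at 1.41 and 1.07 FPKM. Runx2, Vdr, Smad9 and Tmem38b were thus the genes of these lists, beside Sp7, Alpl and Postn, that were lower by more than 1.5-fold.

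**Figure D5:**
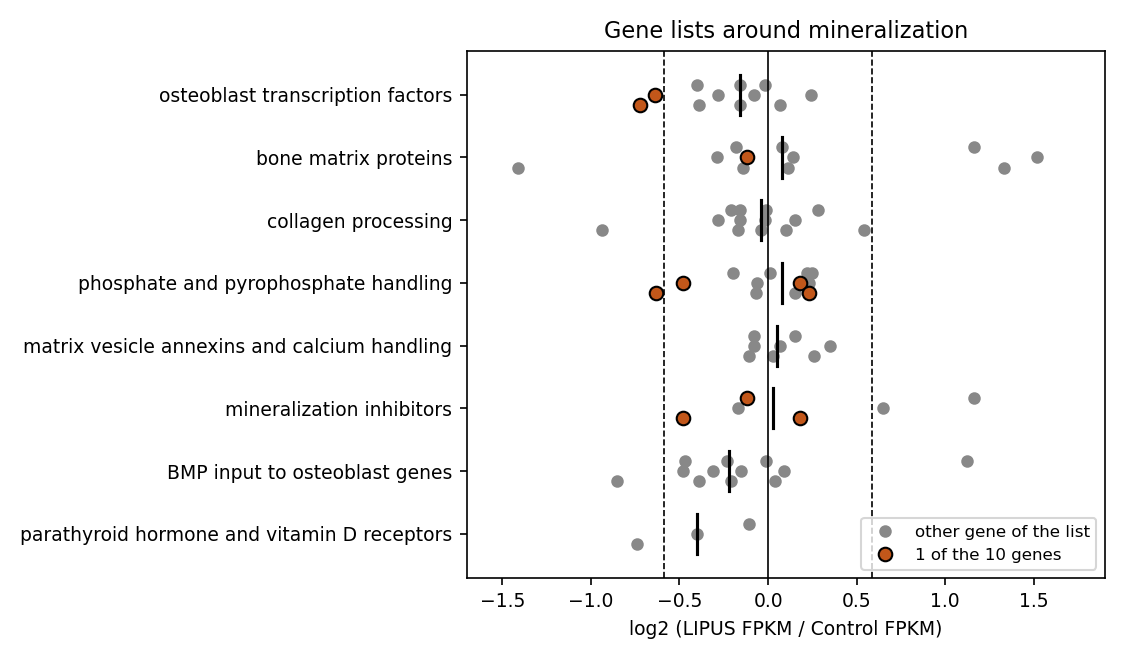
log2 of LIPUS/Control (x axis) of each gene with a mean FPKM of at least 1 and a ratio, in 8 lists (rows); the 10 genes described here are in orange, other genes in grey, black bars are list medians and dashed lines 1.5-fold. A gene in several lists is drawn in each; Runx2 and Sp7 are the lowest of their list, and Alpl is the lowest of its own.

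The label of the cells was checked against marker genes, and several that define osteocytes were not detected. Sost, Mepe, Fgf23 and Dkk1 were listed at 0 in both groups, which at the estimated depth allows up to 0.444 FPKM for each, Phex was at 0 FPKM in Control and 0.190 FPKM in LIPUS, and Dmp1 was low. Pdpn (295 and 402 FPKM), Gja1 (176 and 170 FPKM) and Cd44 (200 and 212 FPKM), which many other cells also express, made up most of the list's sum of 675 FPKM in Control and 791 FPKM in LIPUS. Markers of other cell types differed between the groups in both directions. The leukocyte list, with Ptprc, Adgre1 and Itgam at 0, summed to 13.7 and 12.6 FPKM, and its Cd68 was at 5.32 and 1.72 FPKM and its Cd14 at 8.19 and 10.6 FPKM. The osteoclast list summed to 42.4 and 55.4 FPKM, nearly all of it Ctsk (42.2 and 53.6 FPKM), with Calcr, Dcstamp and Oscar at 0. Its Acp5 was at 0.204 and 1.10 FPKM, Mmp9 at 0 and 0.727 FPKM and Ocstamp at 0 and 0.0623 FPKM. In the chondrocyte list (54.7 and 76.3 FPKM), Sox9 was at 43.7 and 66.8 FPKM, Col2a1 at 8.76 and 7.51 FPKM and Col10a1 at 2.12 and 1.75 FPKM, and Acan and Matn1 were at 0. The adipocyte list summed to 98.9 and 86.2 FPKM, with Fabp4 at 52.3 and 30.4 FPKM, Pparg at 19.2 and 23.8 FPKM, Cebpa at 20.9 and 23.2 FPKM, Lpl at 5.82 and 8.66 FPKM and Plin1 at 0. In the muscle list (2.03 and 5.70 FPKM), Acta1 was at 1.97 and 5.62 FPKM, and Myod1, Myog and Myh3 were at 0. Their part in the values of Runx2, Sp7, Alpl and Ank was not tested.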

How the data were processed

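RNA of 3 LIPUS and 3 Control cultures of MLO-Y4 cells was sequenced from stranded mRNA libraries as paired-end reads of 100 bases. Per the submitters' processing notes, the authors trimmed reads with Trimmomatic 0.36 and aligned them to GRCm38 with TopHat2 2.1.0 and Bowtie2 2.2.6.0. The authors deposited an FPKM per group, computed with Cufflinks and Cuffdiff and Ensembl transcripts. The processing notes give Cufflinks 2.1.1, and the study's methods name another version. The deposited status column, another kind of value, says whether Cuffdiff tested a gene. The table also holds the authors' log2 fold change, test statistic, p-value, q-value and a significance mark for LIPUS against Control, which were not used. No column of single-library values was present in what was analysed (0 such columns left unused).

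The ratio LIPUS/Control was computed without a pseudocount, and genes with a mean FPKM of at least 1 were counted at 1.5-fold. No count test or SD can be had from group values, and samples labelled as replicates are taken as separate cultures. Depth and fragment estimates come from steps in low FPKM and were devised after the data were seen. They are approximate for genes with several transcripts. The floor was 3 fragments. Intervals treat a group's fragments as a single count. Gene positions, transcript lengths and coding sequences came from GENCODE M21, which held 99.66% of the rows, and promoter windows from RefSeq GRCm38.p6.

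The genes and lists were chosen with earlier results of these data known. All 10 genes are named, with the genes of each pathway list past 1.5-fold, the 3 most abundant of each such list, and marker genes that describe the label. Overlapping genes and Bglap3 are named for their position. The work was done in Python 3.11.15 (scipy 1.17.1 for intervals, matplotlib 3.10.9 for plots, pandas 2.3.3 and numpy 2.4.6 for tables), and the steps were tested on simulated data. Alternatives were pseudocounts of 0.1 and 1, and no limit on FPKM or a limit of 10. Others were 2-fold and a fold midway between 1 and 1.5, and scaling by the median or the upper quartile. The last was a sum of Bglap, Bglap2 and Bglap3.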

Additional observations from a re-analysis of the deposited data

How the results depend on the processing

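The ratios of Runx2, Sp7, Alpl, Ank, Spp1, Enpp1 and Phospho1 kept their direction under each alternative that gave them a value, and those of single list genes were not recomputed. With a limit of 10 FPKM, the lists around mineralization held 3 lower and 3 higher genes in place of 7 and 5. Of all rows at 10 to 100 FPKM, 3.70% were lower and 3.53% higher, and at 100 to 1000 FPKM 1.72% and 3.21%. The number of list genes past this limit is not given. At 2-fold, 0 of the 10 genes were lower, and of the list genes 1 was lower and 4 were higher, beside 3.16% lower and 2.91% higher of all rows past the limit. At a fold midway between 1 and 1.5, 15 list genes were lower and 7 higher, beside 18.1% and 17.0% of all rows, and Ank passed. These counts of list genes were not tested against those of all rows. With Bglap, Bglap2 and Bglap3 summed, their sum was higher by more than 1.5-fold, resting on 4 fragments in LIPUS and 2 in Control. A pseudocount of 1 FPKM moved Sp7 to -0.53, within 1.5-fold. Scaling by the median or the upper quartile, no limit on FPKM and a pseudocount of 0.1 changed no call among the 10 genes. No paired analysis was possible because the table gives 1 value per group, and for the same reason no culture could be left out. Subtracting 25 bases more or less from the transcript lengths, an alternative chosen after seeing the data, gave 95 to 96 fragments for Runx2 in LIPUS and 151 to 153 in Control. The shortest of 7 coding transcripts was used for Runx2 and was not varied. This range therefore does not show how far its fragments could be off. Depth limits the osteocalcin genes and Ibsp, which lie under 3 fragments, and leaves the ratios of Phospho1 and Sp7 uncertain. The spread between cultures is unknown for every gene, including the Control culture that stood apart.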
